A study of Homo sapiens with 12 samples.

Results

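The comparison described here sets sorafenib alone against perifosine alone in HDLM-2, an established cell line grown from human Hodgkin lymphoma. Its members are 6 of the 12 arrays of the study, taken by the treatment in their titles: 3 arrays of cells kept for 24 h with 5 µM sorafenib and 3 arrays of cells kept for 24 h with 10 µM perifosine. The other 6 arrays are 3 of untreated control cells and 3 of cells given 10 µM perifosine together with 5 µM sorafenib, also for 24 h. All 4 groups came from the same line in culture, the replicates carry the letters A, B and C, and nothing in the labels says that they were separate cultures, so p-values measure the spread between these arrays, which may be technical. The doses differ, so each difference is between these treatments as given and not between equal doses.

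Perifosine is an alkylphospholipid that settles in cell membranes and keeps the kinase AKT from being recruited there, which lowers survival and growth signalling. Sorafenib is a kinase inhibitor that acts on RAF kinases and on several receptor tyrosine kinases. RAF acts through MEK and ERK on immediate-early genes such as FOS and EGR1 and on feedback phosphatases such as DUSP5 and DUSP6, while many kinase inhibitors also engage the integrated stress response, in which the transcription factor ATF4 switches on genes of amino acid synthesis and transport.

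Each array carried 48803 probes, of which 21894 to 22058 were above the background threshold, and the deposited signals of the 12 arrays already shared nearly the same distribution. In all, 13591 genes were tested, each by 1 probe, on a log2 signal scale. Perifosine array B and sorafenib array C stood apart from the others, with a mean correlation across genes of 0.989 with the remaining arrays against 0.992 to 0.993 for the other 10 arrays, and each of the pair correlated best with the other, at 0.991. Of 12 Hodgkin cell markers, 11 were above background on every array, whereas the B cell genes BLK, CD22 and PAX5, the myeloid genes MPO and S100A9 and the vessel or stroma genes CDH5, COL3A1 and VWF were above it on none. On the other marker lists, MS4A1 of 6 B cell genes, CD2 of 8 T cell genes, CSF1R and ITGAM of 7 myeloid genes, and PDGFRA and PECAM1 of 7 stroma or vessel genes were above background on all arrays. The summed deposited signal of the Hodgkin markers was 113663 to 122609 on the perifosine arrays and 130653 to 133222 on the sorafenib arrays. The bright CCL17 carried this gap: without CCL17 the sums overlapped, at 88841 to 99421 and 94884 to 99609. Of the 11 tested Hodgkin markers, 8, CCL17 among them, had a log2 difference above 0, and the median was 0.22. TRAF1 and FSCN1 had 0.62 and 0.48, while CD274, IL2RA and TNFRSF8 had -0.37, -0.19 and -0.27, none of them called. For the other lists the sum overlapped between the treatments, at 1194 to 1396 and 1227 to 1325 for B cells, 14720 to 16039 and 15757 to 16135 for T cells, 2374 to 2640 and 2548 to 2717 for myeloid cells, and 2695 to 3165 and 2859 to 2886 for stroma and vessels, with perifosine first in each pair. The part of these levels in the differences below was not tested.

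The sequences that help to read the results come from RefSeq for the build GRCh38.p14 and are given from 5′ to 3′. The first pair shows the 250 bases before the start of ASNS (chr7:97872409-97872658, minus strand) and of ALPK2 (chr18:58629092-58629341, minus strand), both higher with sorafenib, with matches to TGATGNAA in capitals. This spells a composite element bound by ATF4 with a C/EBP partner, and in ALPK2 it lies on the opposite strand.
ASNS: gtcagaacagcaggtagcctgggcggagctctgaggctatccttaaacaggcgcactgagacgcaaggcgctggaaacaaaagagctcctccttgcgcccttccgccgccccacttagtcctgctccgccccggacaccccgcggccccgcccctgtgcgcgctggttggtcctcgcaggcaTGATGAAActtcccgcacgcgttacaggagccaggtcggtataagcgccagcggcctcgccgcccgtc
ALPK2: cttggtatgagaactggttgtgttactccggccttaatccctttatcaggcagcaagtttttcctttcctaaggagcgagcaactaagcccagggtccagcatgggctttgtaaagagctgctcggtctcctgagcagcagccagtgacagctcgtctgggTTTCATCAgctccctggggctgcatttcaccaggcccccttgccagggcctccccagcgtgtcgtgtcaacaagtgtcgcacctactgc
The second pair shows the same stretch of the neighbouring keratin-associated protein genes KRTAP9-3 (chr17:41232199-41232448, plus strand) and KRTAP9-4 (chr17:41249437-41249686, plus strand), both lower with sorafenib. They are 90.91% identical over 231 aligned bases, and their longest shared run, 77 bases, is in capitals.
KRTAP9-3: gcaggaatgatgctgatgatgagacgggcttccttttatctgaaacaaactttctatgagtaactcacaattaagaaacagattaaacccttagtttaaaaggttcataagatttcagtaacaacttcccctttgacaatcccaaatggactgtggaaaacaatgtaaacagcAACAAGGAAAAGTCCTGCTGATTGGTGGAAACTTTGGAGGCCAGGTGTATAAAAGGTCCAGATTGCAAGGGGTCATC
KRTAP9-4: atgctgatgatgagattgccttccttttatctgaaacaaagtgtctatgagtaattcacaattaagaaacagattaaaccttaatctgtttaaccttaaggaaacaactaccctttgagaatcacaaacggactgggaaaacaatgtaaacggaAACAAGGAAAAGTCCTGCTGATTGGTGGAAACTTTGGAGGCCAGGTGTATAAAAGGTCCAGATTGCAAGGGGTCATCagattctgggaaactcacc
The last pair shows the mature miRNAs of the chromosome X locus of MIR503HG, a non-coding transcript that was strongly lower with sorafenib. Their seeds, bases 2 to 8, are in capitals and share 6 of 7 bases. The mature miRNAs themselves were not measured on these arrays.
hsa-miR-503-5p: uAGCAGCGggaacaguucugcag
hsa-miR-424-5p: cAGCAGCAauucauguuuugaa

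Between the single agents, 60 of 13591 genes (0.441%) differed at an adjusted p under 0.05 by limma, 45 of them higher with sorafenib (0.331%) and 15 lower (0.11%). The largest fitted differences in each direction were the rise of CYP4Z1, a fatty acid hydroxylase of the cytochrome P450 family, by 1.43 on the log2 scale and the lower level of KRTAP9-3, a hair keratin-associated protein gene, with -1.79. Of the 60 genes, 10 had a fitted difference of at least 2-fold. The 6 higher ones were CYP4Z1, ASS1, INHBE, C4BPB, GPER1 and MAP2K6, the last with only a bound of 1.59-fold because no perifosine array was above background, and the 4 lower ones were MIR503HG, KRTAP9-3, KRTAP9-4 and KRTAP9-8. The median difference was 0.73 for the higher genes and -0.78 for the lower ones, while the median of all genes tested was -0.01, with 48.4% of them above 0. In all 60 genes the 3 sorafenib arrays did not overlap the 3 perifosine arrays, which holds for 15.3% of all genes tested. By limma, 1472 genes (10.8%) had an unadjusted p under 0.05, 828 of them higher with sorafenib and 644 lower. The count of 60 depended on single arrays: it was 11, 53 and 29 without perifosine array A, B or C. It was 16, 13 and 39 without sorafenib array A, B or C. Of the 53 without perifosine array B, 37 belong to the 60. Without both arrays that stand apart the count was 26, of which 21 belong to the 60.

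**Figure D1:**
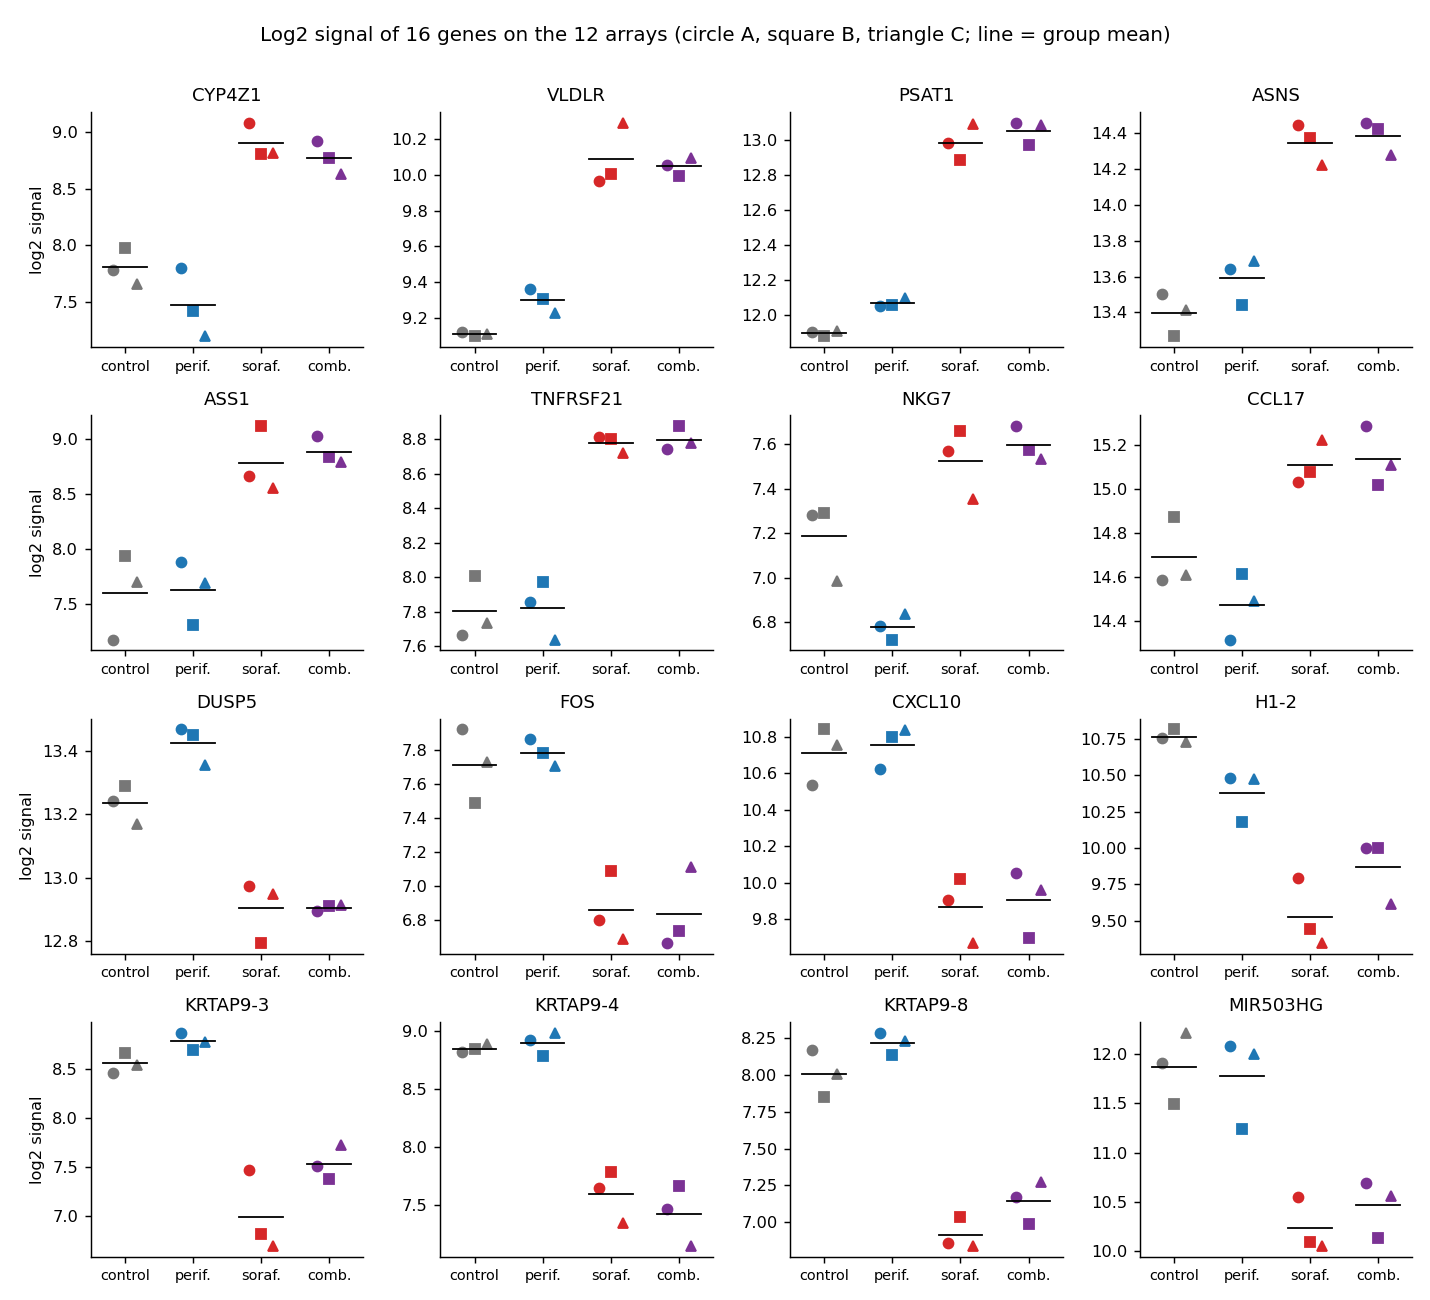
Log2 signal (vertical axis, own range in each panel) of 16 genes on the 12 arrays by treatment, with circles, squares and triangles for replicates A, B and C and a line for the group mean of 3. In every panel the 3 sorafenib arrays lie all above or all below the 3 perifosine arrays, and the combination arrays lie on the sorafenib side of the perifosine arrays.

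Amino acid synthesis enzymes were among the genes raised by sorafenib over perifosine. PSAT1, which transfers the amino group in serine synthesis, had log2 signals of 12.05, 12.06 and 12.10 on the perifosine arrays and 12.98, 12.89 and 13.09 on the sorafenib arrays. The groups were separated by far more than their spread, and PSAT1 was 1.89-fold higher (log2 difference 0.92 ± 0.10, SE; limma adjusted p = 0.00123). ASNS, which makes asparagine from aspartate, had 13.65, 13.44 and 13.69 with perifosine and 14.45, 14.37 and 14.22 with sorafenib. It was 1.69-fold higher (0.76 ± 0.11, adjusted p = 0.0117), although a dimmer ASNS probe gave 0.27. ASS1, which makes argininosuccinate on the way to arginine, had 7.88, 7.30 and 7.69 with perifosine and 8.67, 9.12 and 8.56 with sorafenib. It was 2.23-fold higher (1.16 ± 0.21, adjusted p = 0.0277), its other probe gave 0.76, and processed pseudogenes of ASS1 could share its probes. GLDC, which cleaves glycine for the folate pool, rose by 0.68 ± 0.12 (adjusted p = 0.0288). The call of PSAT1 held whichever array was left out, that of ASNS in 9 of 12 such fits, of ASS1 in 7 and of GLDC in 6.

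PSAT1 and GLDC were the 2 of 11 tested serine and one-carbon folate enzymes that rose, with 0 lower and a list median of 0.10. Of 17 enzymes for asparagine, cysteine, arginine, proline and related amino acids, ASS1 and ASNS rose, 15 did not pass and the median was 0.11. Among 15 amino acid transporters (median 0.11) and 18 cytosolic aminoacyl-tRNA synthetases (median 0.06), 0 passed in either direction, with 4 at an unadjusted p under 0.05 in the higher direction in each list and 0 and 2 in the lower. CTH, which makes cysteine from cystathionine and was named after its value was seen, had 10.79, 10.96 and 10.54 with perifosine and 11.20, 11.33 and 11.47 with sorafenib, a difference of 0.57 that did not pass (adjusted p = 0.0857).

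The regulators and other targets of the integrated stress response gave 3 higher genes of 24 tested, 0 lower and 21 that did not pass. The list median was 0.23 and 19 of 24 genes were above 0. Over all genes tested, 0.331% were called higher and 48.4% were above 0. INHBE, which encodes an activin subunit and is secreted under stress, had 9.03, 8.86 and 9.02 with perifosine and 10.06, 10.19 and 9.92 with sorafenib, a 2.12-fold difference (1.09 ± 0.21, adjusted p = 0.0352). VLDLR, a receptor that takes up triglyceride-rich lipoproteins, had 9.36, 9.31 and 9.22 with perifosine and 9.97, 10.01 and 10.29 with sorafenib. VLDLR was 1.73-fold higher (0.79 ± 0.11, adjusted p = 0.00846), and its highest value was on sorafenib array C, one of the arrays that stand apart. ULBP1, a surface ligand by which natural killer cells detect stressed cells, was higher by 0.68 ± 0.11 (adjusted p = 0.0187), from 9.79, 9.65 and 9.88 to 10.51, 10.52 and 10.32. Those 3 genes are known as effectors downstream of the stress response and are not its transcription factors. ATF4 itself had 15.13, 15.22 and 14.97 with perifosine and 15.41, 15.49 and 15.52 with sorafenib, a difference of 0.37 ± 0.11 that did not pass (adjusted p = 0.237). DDIT3, which encodes the factor CHOP, had a difference of 0.50 ± 0.13 (adjusted p = 0.178) and the pseudokinase gene TRIB3 one of 0.27 ± 0.15 (adjusted p = 0.547). TRIB3 was lowest on perifosine array B, at 8.88 against 9.50 and 9.41. Of the 3 called genes, VLDLR was called in all 12 fits with 1 array left out, ULBP1 in 8 and INHBE in 4.

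The ATF4 element shown above, searched on both strands as TGATGNAA in the 250 bases before the start, was in the promoters of 2 of the 37 called higher genes with a RefSeq promoter (5.41%), namely ASNS and ALPK2, and in 0 of 8 called lower genes. It was in 1.90% of the promoters of genes tested and in 3.19% of all promoters in the table. In ASNS it lies 68 bases before the start and in ALPK2 89 bases. ALPK2, an alpha-kinase gene, had 9.69, 9.53 and 9.62 with perifosine and 10.50, 10.43 and 10.20 with sorafenib (1.70-fold, adjusted p = 0.0112). The AP-1 element TGANTCA, which FOS and JUN proteins bind, was in 6 of the 37 higher promoters (16.2%) and in 0 of the 8 lower ones, against 4.24% of genes tested and 6.60% of all promoters. These matches describe letters in this window and say nothing of binding.

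CYP4Z1, which belongs to a family that hydroxylates fatty acids, had 7.80, 7.42 and 7.19 with perifosine and 9.08, 8.80 and 8.82 with sorafenib. All sorafenib arrays lay above all perifosine arrays, and the 2.69-fold difference (1.43 ± 0.16, adjusted p = 0.00144; 95% interval 1.09 to 1.77) was called in each of the 24 alternative settings. Its 3 other probes above background gave 1.07, 0.84 and 0.44, all higher with sorafenib. The neighbouring pseudogene CYP4Z2P is a near copy, so some of this signal could come from it, although the probe named for CYP4Z2P gave 0.11. CYP4Z1 was the only called member among 8 tested CYP4 genes, whose median was 0.27.

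Other higher genes encode membrane and lipid proteins. CAV1, the main coat protein of caveolae, had 11.38, 11.52 and 11.17 with perifosine and 12.13, 12.16 and 12.08 with sorafenib. It was 1.70-fold higher (0.77 ± 0.13, adjusted p = 0.0169), its other probe gave 0.58, and it was the 1 called gene of 8 caveolins and related coat genes (median 0.14). ANXA8, a membrane-binding annexin, rose by 0.86 ± 0.12 (adjusted p = 0.0112), its other probe gave 0.32, and near-identical annexin copies on chromosome 10 could share its probe. VLDLR was the 1 called gene of 14 for lipoprotein uptake and cholesterol transport, with a median of 0.15. Of 20 listed genes of phosphatidylcholine and sphingomyelin metabolism, the class of lipid that perifosine resembles, 0 passed in either direction. In that list 1 had an unadjusted p under 0.05 in the higher direction and 2 in the lower, and the median was -0.02. The list left out LPCAT4, a phospholipid acyltransferase gene that was called higher by limma (0.62 ± 0.10, adjusted p = 0.0169). Of 20 genes of sterol synthesis and uptake, 0 passed, with 1 at an unadjusted p under 0.05, higher, and a median of -0.06. EFR3B, which helps to anchor a phosphatidylinositol kinase at the plasma membrane, rose by 0.75 ± 0.11 (adjusted p = 0.0117), from 9.13, 8.87 and 9.20 to 9.93, 9.80 and 9.74, and its other probe gave 0.28.

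Several called genes encode receptors and signalling proteins. TNFRSF21, a receptor of the tumour necrosis factor family also known as DR6, had 7.86, 7.97 and 7.64 with perifosine and 8.81, 8.80 and 8.72 with sorafenib. It was 1.94-fold higher (0.95 ± 0.12, adjusted p = 0.00562) and held its call whichever array was left out. GPER1, a G protein-coupled receptor for estrogen, had 8.15, 7.69 and 8.37 with perifosine and 9.07, 9.20 and 9.06 with sorafenib, a 2.06-fold difference (adjusted p = 0.0109), with its other probes at 0.59 and 0.07. GNG2, a G protein gamma subunit, rose by 0.80 ± 0.12 (adjusted p = 0.0112). MAP2K6, a kinase that activates p38, was above background on 0 of 3 perifosine arrays and on 3 of 3 sorafenib arrays. Its log2 signals were 6.03, 6.28 and 6.26 against 7.39, 7.41 and 7.34, which makes it at least 1.59-fold higher when the dim arrays are set at the lowest signal above background (adjusted p = 0.0115). Its fitted difference was 1.19, and 0.57 without background correction. ASB9, a substrate-binding subunit of ubiquitin ligases, rose by 0.94 ± 0.12 (adjusted p = 0.00629; other probe 0.65), with its lowest sorafenib array, at 11.58, above its highest perifosine array, at 10.75. The adaptor gene AFAP1L2 rose by 0.91 ± 0.17 (adjusted p = 0.0344) and LBH, a transcription cofactor gene, by 0.76 ± 0.11 (adjusted p = 0.0112). Other probes gave 0.62 for AFAP1L2 and 0.22 and 0.59 for LBH. AFAP1L2 was called in 1 of the 12 fits with 1 array left out. P4HA2, a prolyl hydroxylase of collagen and 1 of 29 genes for glycolysis and the hypoxia response, rose by 0.71 ± 0.11 (adjusted p = 0.016), and its other probes gave 0.59 and -0.03. The list as a whole had a median of -0.04 and no other call.

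Among the outputs of ERK signalling, FOS and DUSP5 were lower with sorafenib. FOS, a subunit of the AP-1 transcription factor, had 7.87, 7.78 and 7.70 with perifosine and 6.80, 7.09 and 6.69 with sorafenib. FOS was 1.90-fold lower (log2 difference -0.93 ± 0.15, adjusted p = 0.0169), was above background on 2 of 3 sorafenib arrays, and had a difference of -0.53 without background correction. DUSP5, a nuclear phosphatase that removes the activating phosphates of ERK, had 13.47, 13.45 and 13.35 with perifosine and 12.97, 12.79 and 12.95 with sorafenib. The groups did not overlap and DUSP5 was 1.43-fold lower (-0.52 ± 0.10, adjusted p = 0.0332), the smallest difference among the 60, and its call held in 1 of the 12 fits that left out an array. DUSP6, the cytoplasmic ERK phosphatase, had 7.66, 7.94 and 7.73 with perifosine and 7.33, 6.85 and 7.83 with sorafenib. Sorafenib array C lay inside the perifosine range, and the DUSP6 difference of -0.44 ± 0.22 did not pass (adjusted p = 0.502). EGR1, an immediate-early zinc finger factor, had 7.58, 7.79 and 8.04 against 7.31, 6.72 and 7.05, a difference of -0.77 ± 0.20 without overlap that did not pass (adjusted p = 0.163). SPRY4, a Sprouty inhibitor of the pathway, had overlapping arrays and a difference of 0.08 ± 0.21 (adjusted p = 0.946).

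Of 20 ERK feedback and other MAPK output genes, DUSP5 was the 1 lower, 0 were higher, and the median was -0.04, with 2 genes lower and 3 higher at an unadjusted p under 0.05. Of 20 immediate-early factors, FOS was the 1 lower, 0 were higher, and the median was -0.09, with 6 genes lower and 2 higher at an unadjusted p under 0.05. JUN, a partner of FOS in AP-1 that was named after its value was seen, lay on the other side, with 12.09, 12.08 and 12.20 against 12.83, 12.78 and 12.45, a difference of 0.56 that did not pass (adjusted p = 0.0738).

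Chemokines and immune genes moved in both directions. CCL17, the chemokine by which Hodgkin cells attract helper T cells, had 14.32, 14.62 and 14.49 with perifosine and 15.03, 15.07 and 15.22 with sorafenib, which made it 1.55-fold higher (0.63 ± 0.12, adjusted p = 0.0446). CXCL10, an interferon-inducible chemokine, went the other way, with 10.62, 10.80 and 10.84 against 9.91, 10.02 and 9.67. CXCL10 was 1.85-fold lower (-0.89 ± 0.13, adjusted p = 0.0118). CCL17 and CXCL10 were the 2 called of 22 tested chemokines and cytokines of Hodgkin cells, whose median was 0.18. CCL17 is also the marker that kept the summed signal of the Hodgkin markers apart between the treatments, and its call held in 2 of the 12 fits with 1 array left out against 10 for CXCL10.

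Of 26 interferon-stimulated genes, 2 were higher, 0 were lower and the median was 0.11. IFIT3, an antiviral protein with tetratricopeptide repeats, had 8.31, 8.44 and 8.66 with perifosine and 9.06, 9.44 and 9.24 with sorafenib (1.72-fold, adjusted p = 0.0169), while its other probes gave 0.53 and 0.07. ISG20, an RNA exonuclease, rose by 0.56 ± 0.10 (adjusted p = 0.0344), a call that held in 2 of the 12 fits with 1 array left out. APOBEC3H, an antiviral cytidine deaminase, rose by 0.77 ± 0.13 (adjusted p = 0.0207), was above background on 2 of 3 perifosine arrays and had a difference of 0.42 without background correction. CXCL10, although interferon-inducible, differed in direction from these genes. C4BPB, a chain of the complement regulator C4b-binding protein, reached at most 9.25 with perifosine and at least 10.07 with sorafenib, a 2.12-fold difference (adjusted p = 0.0218) with its other probe at 0.39. Of 17 Hodgkin surface molecules and ligands, 0 passed in either direction, with 6 higher and 1 lower at an unadjusted p under 0.05 and a median of 0.13. Of 18 antigen presentation genes, 0 passed, 1 had an unadjusted p under 0.05, higher, and the median was 0.01.

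Of the 4 genes at least 2-fold lower, 3 were keratin-associated protein genes, which encode the matrix of hair fibres and are not known for a role in lymphoid cells. KRTAP9-3 had 8.88, 8.70 and 8.78 with perifosine and 7.47, 6.82 and 6.69 with sorafenib, a 3.46-fold lower level (-1.79 ± 0.17, adjusted p = 0.000796). KRTAP9-4 had 8.93, 8.78 and 8.99 against 7.64, 7.78 and 7.34, which was 2.48-fold lower (-1.31 ± 0.14, adjusted p = 0.00144). KRTAP9-8 had 8.28, 8.14 and 8.23 against 6.86, 7.03 and 6.84, which was 2.47-fold lower (-1.30 ± 0.12, adjusted p = 0.000698). No sorafenib array of the 3 genes reached the lowest perifosine array, and their calls held whichever array was left out. Genes of this family are alike in sequence and the probes were not compared with the transcripts here, so which of them fell is uncertain. A second probe gave -1.002 for KRTAP9-4 and -0.30 for KRTAP9-8. On sorafenib arrays KRTAP9-3 exceeded background on 2 of 3, and without background correction the differences were -1.17 for KRTAP9-3, -0.93 for KRTAP9-4 and -0.79 for KRTAP9-8. Of 9 keratin-associated genes tested, these 3 were lower, 0 were higher, 8 had a negative difference and the median was -0.90.

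MIR503HG, whose gene contains MIR503 and overlaps part of MIR424, had deposited signals of 4443, 2537 and 4219 with perifosine and 1615, 1213 and 1181 with sorafenib. On the normalized scale it was 2.91-fold lower (-1.54 ± 0.24, adjusted p = 0.0158), with its lowest perifosine array, B, still above its highest sorafenib array, A. Of 7 tested host and other non-coding transcripts it was the 1 called. SNORD14C, a small nucleolar RNA encoded within the heat shock gene HSPA8, was lower by -0.67 ± 0.11 (adjusted p = 0.016). HSPA8 itself had a difference of -0.19 that did not pass (adjusted p = 0.499), and the array cannot tell the small RNA from its host transcript.

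Histone genes lay lower with sorafenib as a group, 1 of them past the test. H1-2, a linker histone gene, had 10.48, 10.18 and 10.48 with perifosine and 9.79, 9.45 and 9.35 with sorafenib, which was 1.80-fold lower (-0.85 ± 0.15, adjusted p = 0.0207). All 16 tested linker and replication-type histone genes had a negative difference, from -0.85 to -0.21 with a median of -0.42. Of all 13591 genes tested, 7012 had a negative difference. In 11 of the histone genes the sorafenib arrays lay below the perifosine arrays without overlap, against 998 of all 13591 genes tested. The median of their deviations from the control mean was -0.30, -0.39 and -0.54 on the sorafenib arrays and -0.08, -0.10 and 0.08 on the perifosine arrays. Histone genes are alike in sequence, so their probes are not independent. In bulk RNA, fewer cells in the phase that makes a transcript and less of it per cell cannot be told apart.

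Other lists of growth and protein quality genes held 0 calls with most members below 0. Among 25 genes for ribosome biogenesis or driven by MYC, 22 were below 0, with a median of -0.21 and 4 lower at an unadjusted p under 0.05. Of 21 cytosolic and mitochondrial chaperones, 19 were below 0, with a median of -0.19 and 7 lower at that unadjusted level. Of 31 DNA replication genes, 27 were below 0, with a median of -0.13 and 4 lower at that level. These counts stand beside 48.4% of all genes above 0 and 644 of all 13591 genes lower at an unadjusted p under 0.05. Members of such lists are co-regulated and not independent. The 13 housekeeping genes held 0 calls, also at an unadjusted p under 0.05 in either direction, with a range of -0.13 to 0.12. The lists for the unfolded protein response, fatty acids, JAK and STAT signalling, NF-kB, the BCL2 family, death receptors, p53 targets, CDK inhibitors and G1 cyclins, mitosis, lysosome and autophagy, NRF2 targets and metallothioneins also held 0 calls. Their medians lay between -0.12 and 0.08, and at an unadjusted p under 0.05 each held 0 to 3 higher and 0 to 2 lower members. TNFRSF21 (DR6), called higher above, was not on the death receptor list.

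**Figure D2:**
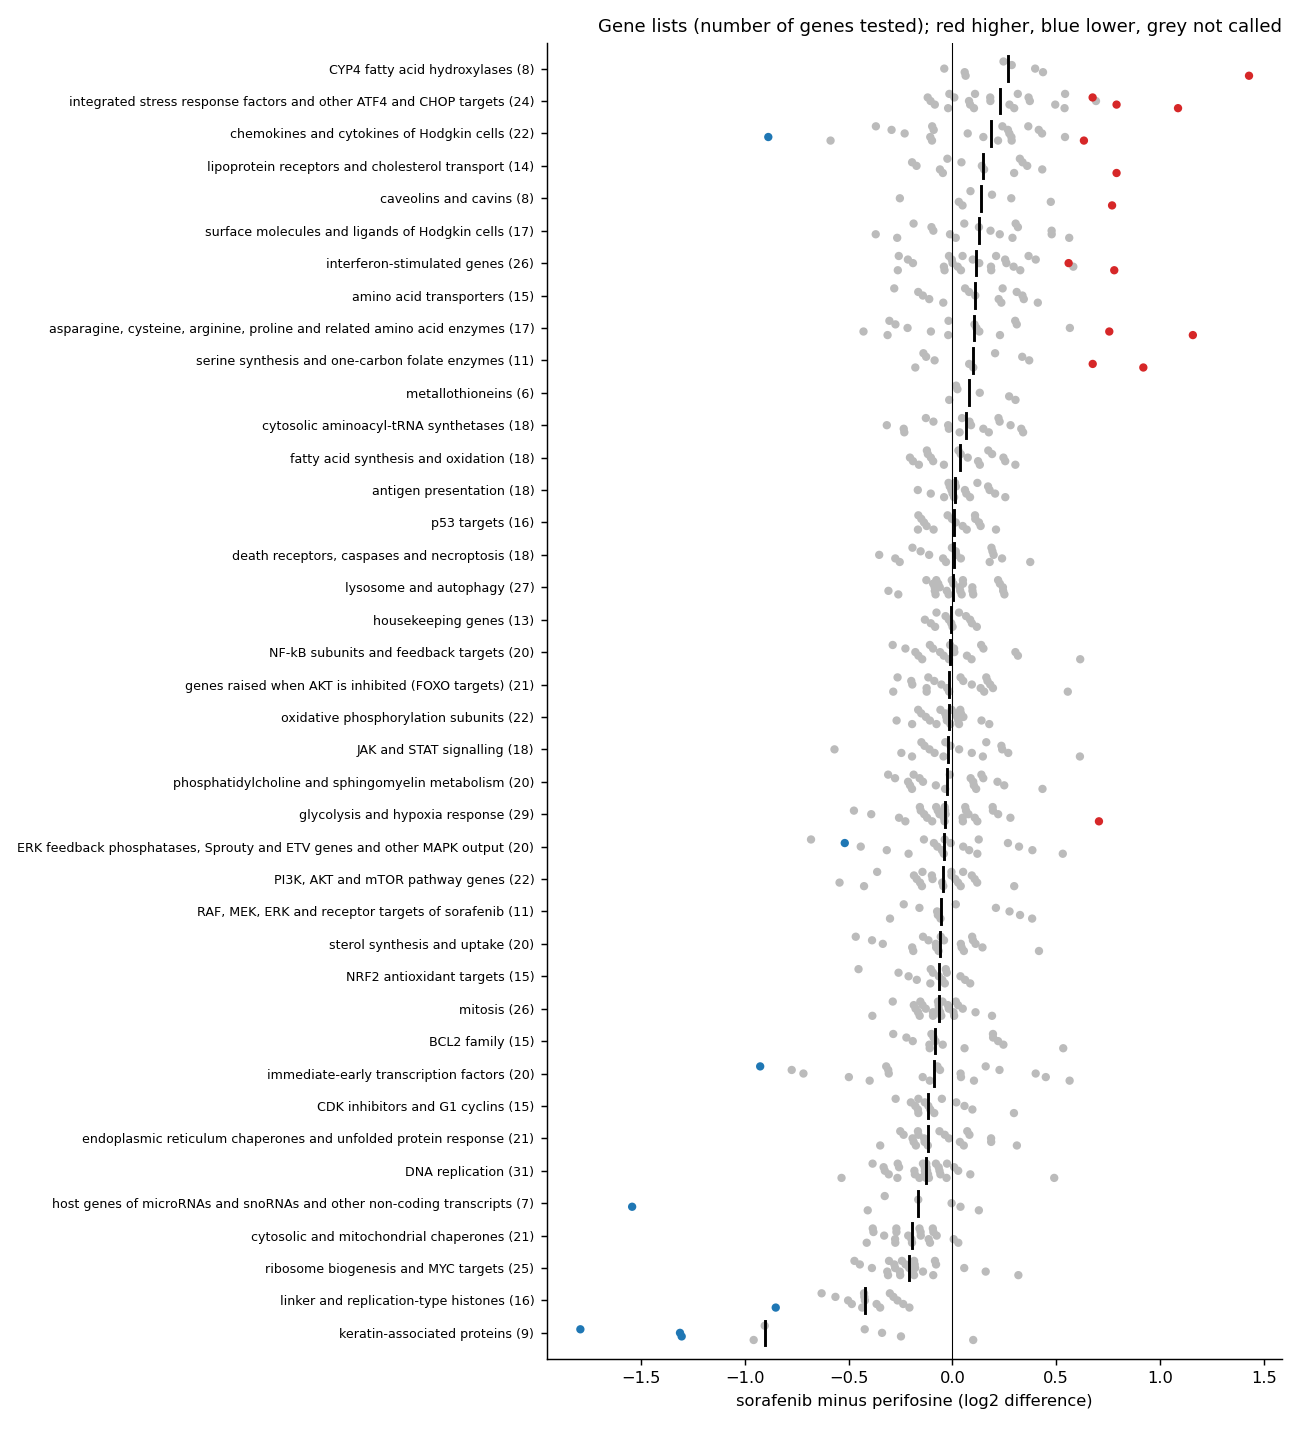
Log2 difference of sorafenib minus perifosine (horizontal axis) for each tested gene of 40 lists (vertical axis, number of genes tested in brackets), red where called higher, blue where called lower and grey where not called, with a black bar at the list median. The keratin-associated protein and histone lists have the lowest medians, and the called higher genes are spread over several lists.

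Of the remaining lower genes, ECE2, an endothelin-converting peptidase, had 9.76, 9.79 and 9.89 with perifosine and 8.95, 9.15 and 9.11 with sorafenib (1.67-fold lower, adjusted p = 0.0143), while its other probe gave -0.42. AKR1B15, an aldo-keto reductase with a close relative beside it, was lower by -0.75 ± 0.12 (adjusted p = 0.0174), TPRG1 by -0.66 ± 0.12 (adjusted p = 0.0285) and CLDND1, a claudin domain gene, by -0.54 ± 0.11 (adjusted p = 0.0477). The call of CLDND1 ended in all 12 fits with 1 array left out. NDUFB4, a subunit of respiratory complex I, had a difference of -0.78 ± 0.14 (adjusted p = 0.0332) by 1 probe and 0.06 by the other, and 0 of 22 genes in a list of other oxidative phosphorylation subunits passed, also at an unadjusted p under 0.05. CMTM7, a membrane protein gene, was above background on 3 of 3 perifosine arrays and 0 of 3 sorafenib arrays, which makes it at least 1.31-fold lower (adjusted p = 0.0378), and its other probe gave 0.06.

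The genes of the drugs' own targets did not pass. AKT1 had a difference of 0.11 ± 0.13 (95% interval -0.18 to 0.39), with direction turning under 3 settings, and AKT2 one of -0.19 ± 0.22, with direction turning without sorafenib array B. MTOR, the growth kinase downstream of AKT, had 0.01 ± 0.12, and PIK3CD, the lymphoid catalytic subunit of PI3 kinase, -0.16 ± 0.14. None of 22 genes of the PI3 kinase, AKT and mTOR pathway was called by limma, with 3 lower and 0 higher at an unadjusted p under 0.05, and none of 11 RAF pathway and receptor genes, with 1 lower and 1 higher. Among the latter, ARAF had -0.16 ± 0.17, FLT3 0.28 ± 0.19, RET 0.33 ± 0.21 and KIT -0.06 ± 0.17, and KIT turned direction without perifosine array C or sorafenib array A. A second RET probe gave -0.20 ± 0.24, the opposite direction. KDR, FLT4, PDGFRB, SPRY2 and CCND1 did not reach the signal filter. MYC had a difference of 0.16 ± 0.14 and -0.03 ± 0.19 by its other probe, and the cell cycle inhibitor gene CDKN1A -0.17 ± 0.13. The apoptosis inhibitor gene MCL1 had -0.11 ± 0.12 by the brighter probe and -0.52 ± 0.18 by the other, which was not in the gene-level test. Of 21 FOXO targets, which rise when AKT is blocked, 0 passed, with 1 higher and 0 lower at an unadjusted p under 0.05 and a median of -0.02.

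The control arrays show on which side of untreated cells each difference lay. By limma, 113 of 13591 genes (0.831%) differed between sorafenib and control, and 0 (0%) between perifosine and control, with no adjusted p below 0.991 and 545 genes at an unadjusted p under 0.05. Both comparisons share the control arrays and each shares 3 arrays with the difference between the agents, so the values are set side by side only. In 59 of the 60 genes the sorafenib mean lay farther from the control mean than the perifosine mean did. The median distance from control was 0.74 with sorafenib and 0.09 with perifosine. The exception was NKG7, a granule membrane gene of cytotoxic cells named after its value was seen, with -0.41 for perifosine minus control and 0.34 for sorafenib minus control. Its log2 signals were 7.28, 7.29 and 6.99 in the control, 6.78, 6.72 and 6.84 with perifosine and 7.57, 7.66 and 7.35 with sorafenib. Its deposited signals with perifosine, 225.5 to 234.3, were just above the background threshold of 224.9 to 225.2 on those arrays, and its difference between the agents, 0.75, was 0.41 without background correction.

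In 31 of the 60 genes the agents lay on opposite sides of the control mean, 21 with perifosine below it and sorafenib above and 10 the reverse. The perifosine side made up over 25% of the whole difference in 11 genes, among them NKG7 (54.5%), GLDC, DUSP5 (36.6%), APOBEC3H, CCL17, GPER1 and IFIT3. For DUSP5 the mean difference from control was -0.33 with sorafenib and 0.19 with perifosine, and for GPER1 it was 0.69 and -0.35. Neither DUSP5 value passed by limma on its own (adjusted p = 0.13 and 0.991). H1-2 was below control with both agents, at -1.24 with sorafenib and -0.39 with perifosine, and ASNS and CAV1 were above it with both, at 0.95 and 0.20 for ASNS and 1.01 and 0.24 for CAV1. In all, 48 of the 60 genes were also called for sorafenib against control, and the 12 that were not include NKG7, DUSP5, CCL17, GLDC, IFIT3, ISG20, APOBEC3H and AFAP1L2.

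**Figure D3:**
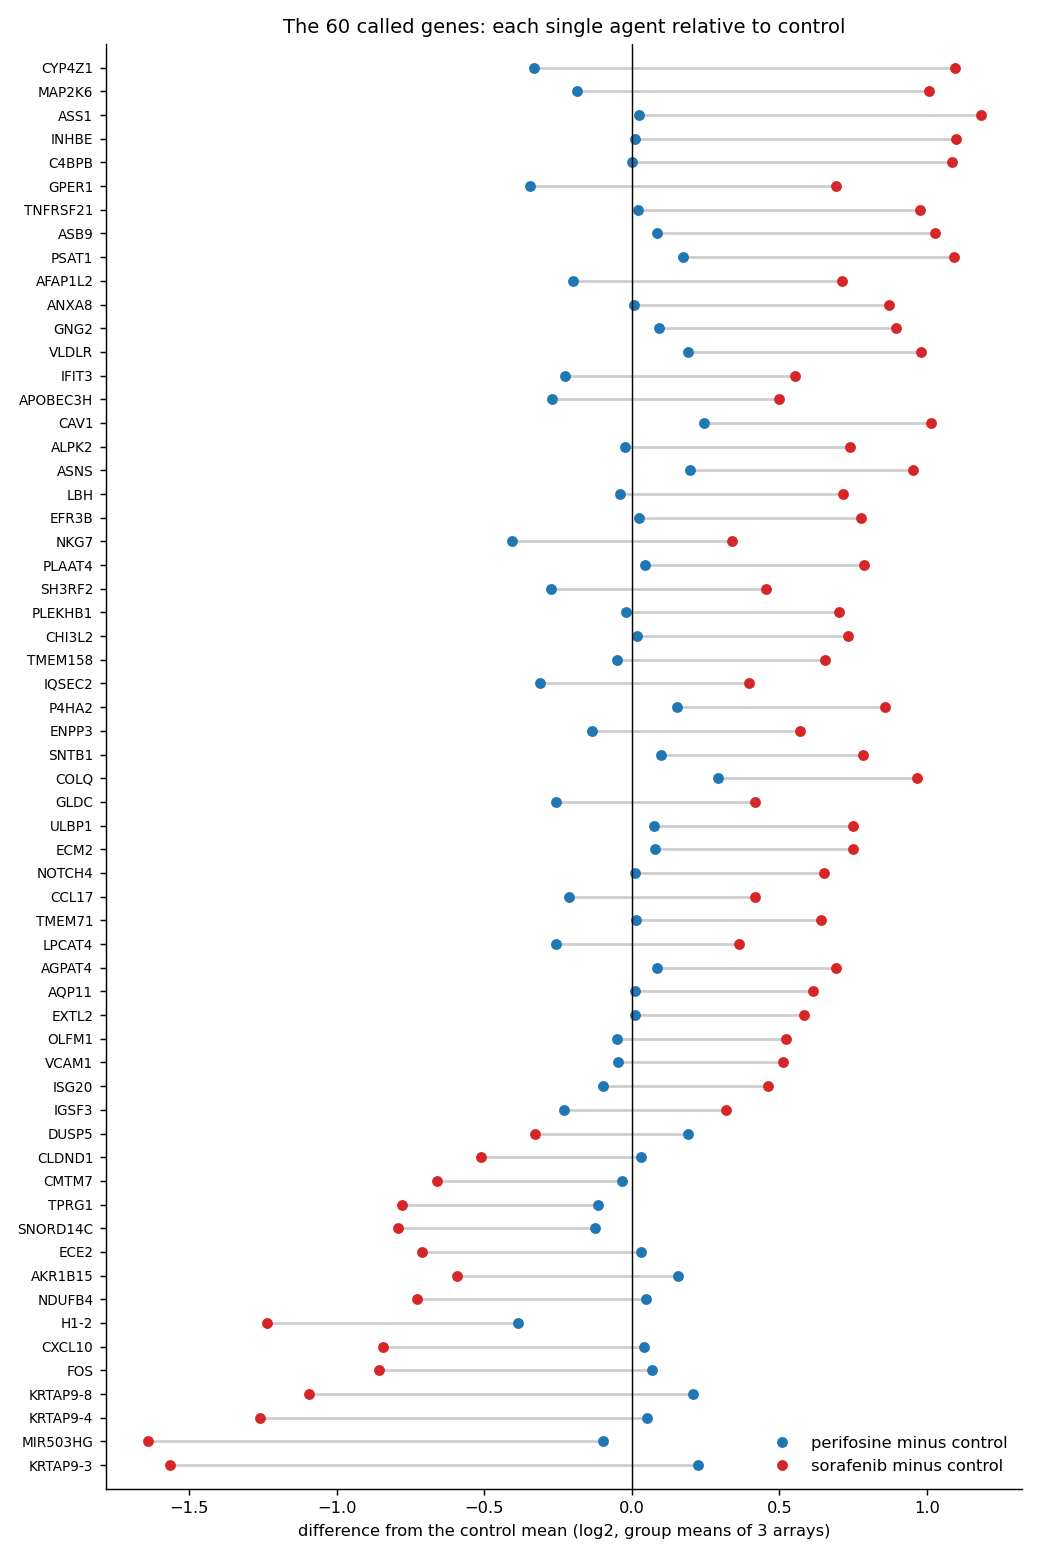
Difference from the control mean (horizontal axis, log2, means of 3 arrays) of the 60 called genes (vertical axis, ordered by the difference between the agents) for perifosine in blue and sorafenib in red. Perifosine points lie within 0.41 of 0, and the sorafenib points reach from -1.64 for MIR503HG to 1.18 for ASS1.

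Combination minus control uses none of the 6 arrays compared above. It also contains perifosine, so it does not measure the difference between the agents again, and since both come from 1 fit to the 12 arrays, each gene has the same SE in both. Combination minus control had the same direction as sorafenib minus perifosine in 60 of the 60 genes, against 9005 of all 13591 genes tested (66.3%). By limma 42 of the 60 were called there, where 85 of all genes (0.625%) were. The median of combination minus control was 0.76 for the 45 higher genes and -0.81 for the 15 lower ones. PSAT1 had 1.16, ASS1 1.29, VLDLR 0.94, CYP4Z1 0.97, KRTAP9-4 -1.43 and MIR503HG -1.41. FOS had -0.88 and CXCL10 -0.81. DUSP5 had -0.33 and did not pass (adjusted p = 0.178). Differences below 0.25 in size were found for 3 genes named after their values were seen, namely ENPP3, an ectonucleotidase, with 0.08, IQSEC2, a guanine exchange factor, with 0.13 and IGSF3, an immunoglobulin superfamily gene, with 0.15. ENPP3 and IQSEC2 were above background on 1 of 3 perifosine arrays.

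**Figure D4:**
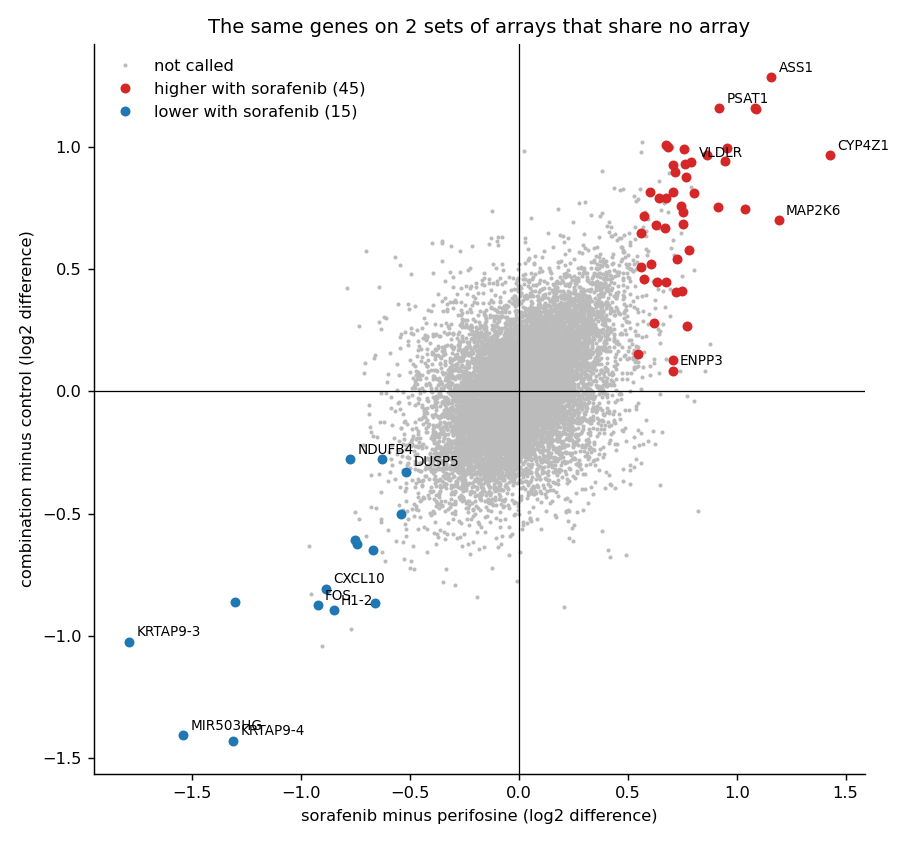
Sorafenib minus perifosine (horizontal axis, log2) against combination minus control (vertical axis, log2) for 13591 genes, with the 45 called higher genes in red, the 15 called lower in blue and the others in grey. All coloured points have the same sign on both axes, with ENPP3 nearest to 0 on the vertical axis.

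How firmly a gene was called depended on the arrays and settings. Calls held in each of the 12 fits with 1 array left out for 8 genes, namely CYP4Z1, PSAT1, VLDLR, TNFRSF21, ASB9, KRTAP9-3, KRTAP9-4 and KRTAP9-8, and under every setting that gave a value for CYP4Z1, PSAT1, ASB9, KRTAP9-3 and KRTAP9-4. In 46 of the 60 the call held in at least 6 of the 12 fits. The 12 fits include those without a control or combination array, which alter only the estimate of the spread and not the difference itself. Those fits kept 46 to 54 of the 60 calls, whereas fits without a sorafenib or perifosine array kept 11 to 37. Without background correction 10 of the 60 differences were over 1.5 times smaller, namely those of MAP2K6, FOS, NDUFB4, CMTM7, APOBEC3H, NKG7, ENPP3, IQSEC2, KRTAP9-3 and KRTAP9-8. Where a gene had more than 1 probe above background, 30 of 33 other probes, over 26 genes, had the same direction as the probe used.

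**Figure D5:**
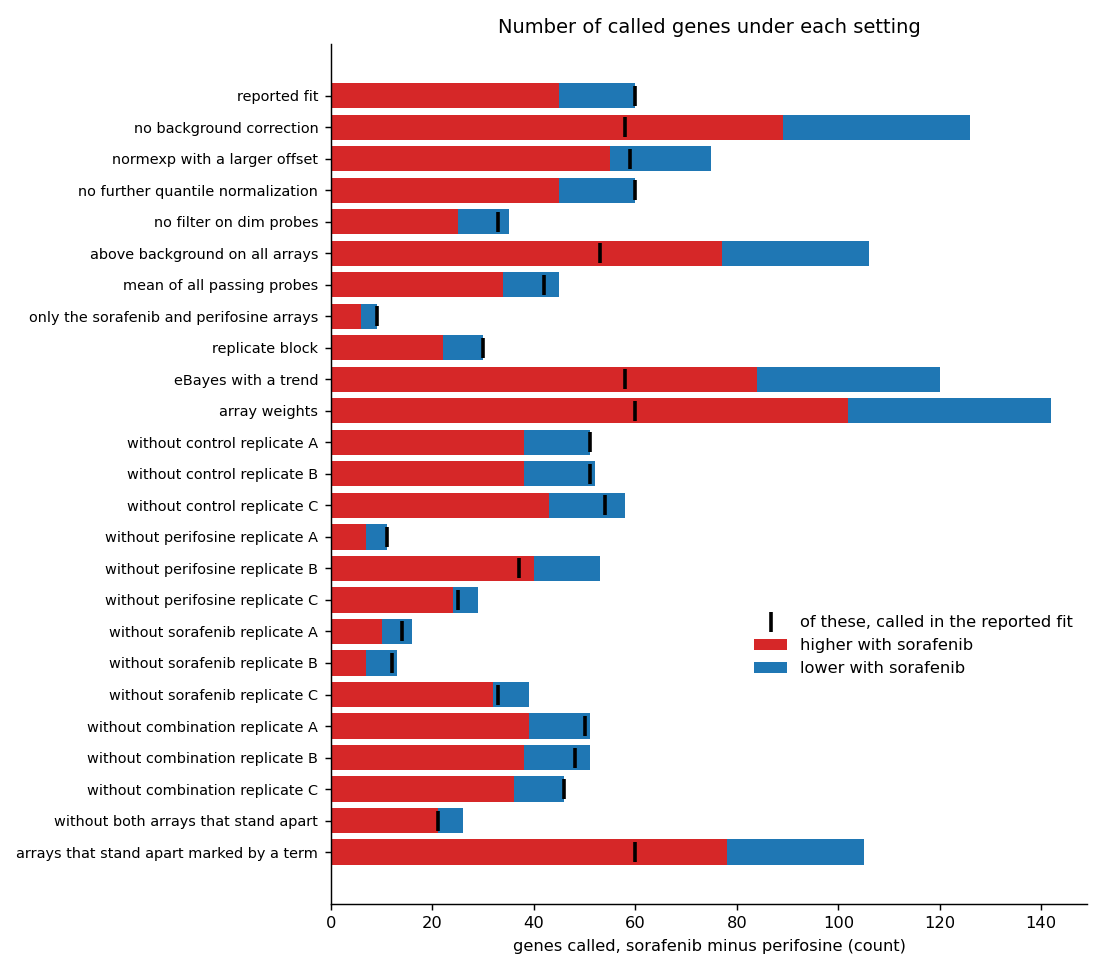
Number of genes called between sorafenib and perifosine (horizontal axis, count) in the reported fit and in 24 other settings (vertical axis), red for higher and blue for lower with sorafenib, with a black tick at the number also called in the reported fit. Counts run from 9 with only the 6 arrays compared to 142 with array weights, and fall to 11 when perifosine array A is left out.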

How the data were processed

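Total RNA of HDLM-2 cells was labelled with biotin and hybridised to Illumina bead arrays, 12 in all, per the labels' protocols. The authors deposited 1 linear intensity per probe for each array. The submitters' processing notes name BeadStudio, and normalization steps were not given in the sources used here. Sorted intensities differed between arrays by 0.0519% at the median, and the lowest was 109.7. A second table has 24 columns whose names match no label and was not used here.

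The signals were corrected with normexp (offset 16), quantile-normalized and turned to log2. On each array a threshold was set at the upper 5% point of the background, from the mode of the signal and the spread of the probes below it, and probes above it on at least 3 arrays were kept. The platform annotation gave 1 symbol for 28098 probes, several for 13, and did not list 20692. Of the first, 28059 were matched by Entrez identifier to RefSeq. The probe with the highest mean stood for each gene. One limma (3.58.1, R 4.3.3) model with 4 group means was fitted to all 12 arrays, with 13.1 total degrees of freedom and a residual SD of 0.18 at the median, and p-values were adjusted by Benjamini-Hochberg over 13591 genes. A gene not above background on any array of 1 group is given as a bound against the lowest signal above background. The fit was also run on simulated data with independent noise and no arrays that stand apart, so that run does not cover such arrays.

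The members and the 45 gene lists were chosen with earlier results of these data known, as were CYP4Z1, VLDLR and DUSP5, which came with the comparison. Of 900 list entries, 748 were tested, and lists were described and not tested. Named genes are CYP4Z1, VLDLR and DUSP5, the 20 largest called differences each way without overlap of arrays, up to 6 called members of each list in each direction, and the drug target, stress and cell cycle genes given with their values. Deviations from the group means correlated at 0.21, -0.13 and -0.24 between same-lettered sorafenib and perifosine arrays, for the letters A, B and C. Differently lettered arrays ran from -0.35 to 0.39, the highest for perifosine array B and sorafenib array C, which stand apart. Deviations within a group depend on each other through its mean, so these values cannot decide whether the letters pair the arrays. Alternatives were other background corrections, normalization, filters, probes and arrays, a replicate block, an intensity trend and array weights.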

Additional observations from a re-analysis of the deposited data

How the results depend on the processing

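Under 24 alternative settings, none of the 60 called differences changed direction, which leaving out arrays could not do because the arrays of the 2 agents did not overlap. The number called was 126 without background correction, 106 with probes above background on all arrays, 35 with no filter on dim probes, 120 with an intensity trend, 142 with array weights and 9 with only the 6 arrays compared. It stayed within 1.5 times of 60 with a normexp offset of 50, without a further quantile normalization and with the mean of all passing probes. Leaving out 1 array gave 11 to 58, the lowest without perifosine array A. It was 26 without perifosine array B and sorafenib array C and 105 with a term for that pair, an alternative chosen after seeing the data. The causes were not tested.

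With the replicate letter as a block 30 genes were called, all among the 60. Whether the letters pair the arrays is not known.

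Differences near 0 turned direction. AKT1 was -0.053 with the mean of its probes, -0.015 with array weights and -0.0054 without both arrays that stand apart, and MTOR was -0.048 with array weights. With 1 array left out, the range was -0.36 to 0.037 for AKT2, -0.18 to 0.086 for KIT, -0.052 to 0.12 for MTOR and -0.11 to 0.24 for SPRY4.

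Signals near background limit the precision of dim genes, and 3 arrays per treatment limit all of them.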

Other observations

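Some other values among the called genes, named after they were seen, bear on functions not covered above. VCAM1, an adhesion molecule for lymphocytes, had log2 signals of 11.10 on all 3 perifosine arrays and 11.83, 11.63 and 11.52 on the sorafenib arrays, a difference of 0.56 ± 0.10 by limma (adjusted p = 0.0322). NOTCH4, a Notch receptor gene, had 9.17, 9.02 and 9.13 against 9.65, 9.89 and 9.70 (0.64 ± 0.12, adjusted p = 0.0352). With 1 array left out, the call held in 3 of 12 fits for VCAM1, whose other probes gave 0.48 and 0.27, and in 2 of 12 for NOTCH4. AQP11, an intracellular aquaporin, had 10.00, 9.84 and 9.99 against 10.58, 10.48 and 10.58 (0.60 ± 0.10, adjusted p = 0.0174). AGPAT4 and LPCAT4, acyltransferases that build phospholipids, differed by 0.60 ± 0.10 (adjusted p = 0.0207) and 0.62 ± 0.10 (adjusted p = 0.0169). Their difference from control with perifosine alone was 0.09 for AGPAT4 and -0.26 for LPCAT4, neither of them called. COLQ, the collagen tail of acetylcholinesterase, was above control with both agents, at 0.97 with sorafenib and 0.29 with perifosine.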
